A study of Mus musculus with 6 samples.

Results

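The subunits of the respiratory chain and the ATP synthase were followed in mouse liver sinusoidal endothelial cells (LSECs), the fenestrated endothelium of the liver lobule. Members were taken by gene symbol: the Nduf genes of subfamilies a, b, c, s and v, Sdha to Sdhd, all Uqcr genes, the Cox4 to Cox8 genes, all Atp5 genes, and the protein-coding genes of the mitochondrial genome. The rule took 100 of the 22298 rows of the deposited table, with 99 distinct symbols because Atp5o has 2 rows. Of these, 87 are nuclear and 13 mitochondrial, and they fall into complex I (43), complex II (4), complex III (9), complex IV (24) and complex V (20). The rule uses gene symbols alone, and it was set with earlier results of these data known. The rule leaves out Cyc1 and Ndufab1, which encode subunits under other symbol patterns.

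The study compared poly(A)-selected RNA of LSECs from Wildtype mice in 6 libraries, control replicates 1, 2 and 3 and aging replicates 2, 3 and 5. No treatment is named in the labels, and both groups share cell type and genotype. The age field goes against the group names: it gives 24 months for the control libraries and 8 weeks for the aging libraries. The ages therefore cannot be assigned here, and higher or lower always describes the aging group, as the labels name it, against the control group. Where 6 values are listed, the 3 control libraries come first and the 3 aging libraries second, each in the order of their numbers.

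Complexes I and II pass electrons from NADH and succinate to ubiquinone, complex III passes them to cytochrome c, and complex IV reduces oxygen. Complexes I, III and IV pump protons across the inner mitochondrial membrane, and complex V, the ATP synthase, uses the gradient to make ATP. Complexes I, III, IV and V are built from products of both genomes, whereas complex II is wholly nuclear, and endothelial cells are known for making much of their ATP by glycolysis.

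Library totals ranged from 15999220 to 17871220 counts, and 13096 genes passed the filter on low counts. The LSEC markers were high as a sum, at 32213 to 39621 CPM (counts per library scaled to the same total) in the control and 32326 to 36007 CPM in the aging libraries. Of the 14, 0 passed the test in edgeR (4 had an unadjusted p under 0.05, and DESeq2 called 0). Their log2 fold changes were below 0 in 11 and above 0 in 3, with a median of -0.145. Among them Lyve1 stood at 551, 629, 662, 244, 67.7 and 462 CPM, with a log2 fold change of -1.25 (edgeR adjusted p = 0.207). The 11 neutrophil markers summed to 239 to 530 CPM in the control and 1629 to 4664 CPM in the aging libraries. All 11 had counts in every library, and 7 rose (63.6%, beside 7.22% of all tested genes). The 12 hepatocyte markers summed to 731 to 879 and 648 to 760 CPM, and 6 fell (50%, beside 5.59% of all tested genes), although Alb had a log2 fold change of 0.03. The part of other cells in the results below was not tested, and in bulk RNA fewer cells of a type and less RNA per cell cannot be told apart. The labels do not say that the libraries came from separate mice, so the p-values rest on the spread from library to library, which may be technical.

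Transcript levels, compared per length as FPKM (fragments scaled by transcript length and library size), differed far more between the 2 genomes than between the groups. The mitochondrial members had a median over genes of 1870 FPKM and the 87 nuclear members 34.3 FPKM. mt-Co1, the catalytic subunit of complex IV, stood highest at 6623 ± 550.2 FPKM (SD over all 6 libraries). It was followed by mt-Co2 (4803 FPKM) and mt-Atp6 (4795 FPKM), which did not differ beyond their SDs of 285 and 281 FPKM. The lowest mitochondrial member was mt-Nd6 at 164 ± 33.1 FPKM. It is the only mitochondrial member on the other strand, and its mRNA is known to lack a long poly(A) tail.

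Among nuclear members, Atp5b, the catalytic beta subunit of the ATP synthase, was highest at 205 ± 12.7 FPKM, above mt-Nd6. Cox6a1 led complex IV (142 ± 7.06 FPKM), Uqcrb complex III (90.3 ± 5.99 FPKM) and Sdha complex II (59.5 ± 3.605 FPKM). The lowest tested nuclear members per complex were Ndufa5 (9.61 FPKM), Sdhb (32.5 FPKM), Uqcr11 (24.6 FPKM), Cox7b (25.4 FPKM) and Atp5k (14.96 FPKM). The median level of nuclear members was 26.7 FPKM in complex I, 34.7 in complex II, 42.6 in complex III, 41.5 in complex IV and 55.4 in complex V. The complex IV value covers 21 members, of which 9 were too low to be tested.

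**Figure D1:**
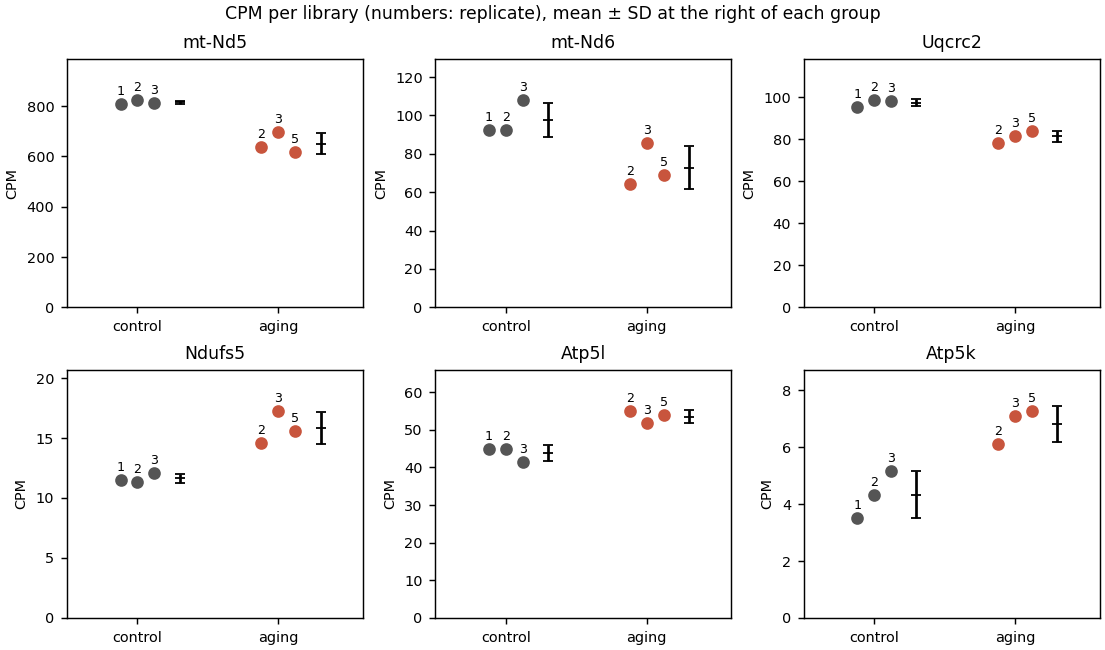
CPM of the members that passed the test and of 3 that came close to it, 1 panel a gene, in the 3 control and the 3 aging libraries (points numbered by replicate, with the group mean ± SD beside them). mt-Nd5 lies at 808 to 823 CPM in the control and 618 to 698 CPM in the aging libraries, and in Ndufs5 and Atp5l the aging libraries lie above all control libraries.

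Subunit transcripts differed little between the groups. Of the 90 members with enough counts, 3 passed the threshold, an adjusted p under 0.05 over all genes in edgeR's quasi-likelihood test. This was 3.33% of the members, beside 12.8% of all 13096 genes (1678 genes, 946 higher or 7.22% and 732 lower or 5.59%). The other 10 members did not pass the filter on low counts and are described with the isoforms. The median log2 fold change was 0.01 over the 90 members and -0.01 over all genes, and the members ranged from -0.42 to 0.65. The quartiles of all genes were -0.23 and 0.24. Upper-quartile scaling in place of TMM turned the split of all calls to 823 higher and 969 lower (45.9% higher, against 56.4%).

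The groups did not overlap for 37 of the 90 members (41.1%), beside 38% of all genes. In 15 members every aging library was higher and in 22 every aging library was lower, beside 19.2% and 18.8% of all genes. An unadjusted p under 0.05 in edgeR was reached by 19 of the 90 members, 10 higher and 9 lower. Over all 13096 genes it was reached by 4098, 2174 higher and 1924 lower. The median standard error of a log2 fold change was 0.10 over the members and 0.15 over all genes.

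**Figure D2:**
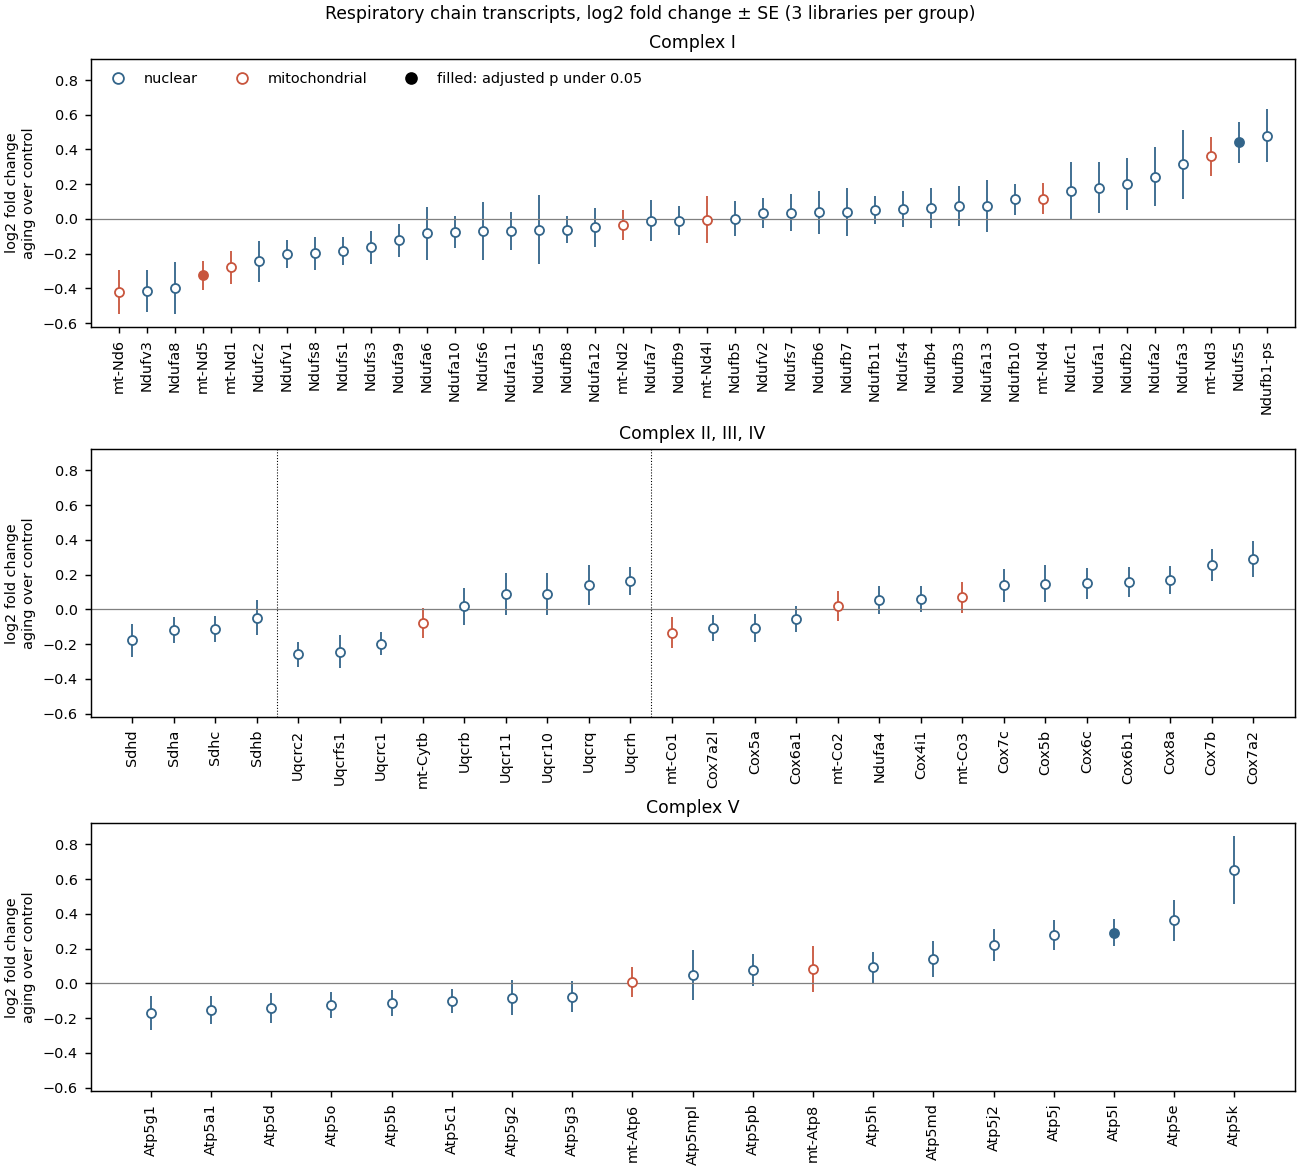
Log2 fold change of the tested members other than 1 not shown, aging over control, with the SE, by complex (panels) and genome (colours). The points run from -0.42 for mt-Nd6 to 0.65 for Atp5k, and the 3 filled points, past the threshold, are mt-Nd5, Ndufs5 and Atp5l.

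Complex I held the only member that fell and a single member that rose. mt-Nd5 (ENSMUSG00000064367), a proton-pumping membrane subunit, stood at 808, 823, 814, 636, 698 and 618 CPM. Every aging library was lower than every control library. The log2 fold change was -0.32 ± 0.09 (SE, n = 3 per group, edgeR adjusted p = 0.0467), so mt-Nd5 fell. Ndufs5 (ENSMUSG00000028648), a small accessory subunit on the intermembrane side, stood at 11.5, 11.4, 12.1, 14.6, 17.2 and 15.6 CPM. The groups did not overlap. It rose 1.36-fold, a log2 fold change of 0.44 ± 0.12 (SE, edgeR adjusted p = 0.0491).

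Both calls lie just inside the threshold. Leaving out any single library lifted the edgeR adjusted p to between 0.0596 and 0.160 for mt-Nd5 and between 0.0593 and 0.158 for Ndufs5, and both calls were also lost with no filter on low counts and with limma on FPKM. That of Ndufs5 was further lost with upper-quartile scaling and with library totals. In the authors' deposited table, neither passed an FDR of 0.05, with log2 fold changes of -0.07 for mt-Nd5 (FDR 0.843) and 0.23 for Ndufs5 (FDR 0.301). The fold changes of that table may not rest on these 6 libraries alone.

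The end of mt-Nd5 is shown because it is shared with the neighbouring mt-Nd6 on the opposite strand. The library kit named in the labels does not mark strand, so reads from the shared bases cannot be told apart. Nor can reads over the rest of mt-Nd6 be assigned to a strand. The capitals mark the 14 shared bases, and the last 60 bases of the gene (GRCm38, MT:13506-13565, plus strand) read 5′ to 3′ as follows:
mt-Nd5: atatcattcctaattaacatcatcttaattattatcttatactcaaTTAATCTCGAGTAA

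The catalytic core of complex I carries the flavin, the iron-sulfur clusters and the membrane arm. Of its 14 subunits, 10 had a log2 fold change below 0, with a median of -0.10, and 7 had aging libraries that were all lower. Over all 13096 genes, 6646 were below 0 and 18.8% had aging libraries that were all lower. The difference from all genes was not tested. Ndufv1, which binds the flavin and NADH, stood at 45.6, 43.9, 44.8, 38.0, 37.2 and 41.3 CPM, with a log2 fold change of -0.20 ± 0.08 (SE, edgeR adjusted p = 0.131). Ndufs1, the large iron-sulfur subunit, had -0.18 ± 0.08 (SE). Neither passed, although their groups did not overlap. Ndufv2 and Ndufs7, further subunits with iron-sulfur clusters, overlapped between the groups, each with a log2 fold change of 0.04.

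The 29 accessory subunits of complex I had a median log2 fold change of 0.04, with 16 above 0 and 13 below. Ndufv3, an accessory subunit of the NADH-binding module, stood at 32.5, 33.0, 28.1, 26.1, 23.7 and 20.4 CPM. All aging libraries were lower, with a log2 fold change of -0.42 ± 0.12 (SE, edgeR adjusted p = 0.0613). Ndufb1-ps, an entry that RefSeq lists as a synonym of the protein-coding Ndufb1, stood at 6.81 ± 0.431 and 9.49 ± 1.13 CPM (SD, n = 3 per group), with all aging libraries higher (edgeR adjusted p = 0.0783). Ndufa8, a subunit with paired cysteine motifs, had 34.3, 35.4, 35.1, 25.1, 32.9 and 21.5 CPM, with the aging libraries lower and more spread out (edgeR adjusted p = 0.122).

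The start region of Ndufs5 is shown because it is the complex I member that rose, and it holds a match to the motif of NRF1, a transcription factor known for nuclear genes of the respiratory chain. Windows were taken from RefSeq's table (GRCm38.p6), from 200 bases before to 30 bases after the annotated start, and the capitals mark the matches. The Ndufs5 window (chr4:123718157-123718386, minus strand) has the match 98 bases before the start:
Ndufs5: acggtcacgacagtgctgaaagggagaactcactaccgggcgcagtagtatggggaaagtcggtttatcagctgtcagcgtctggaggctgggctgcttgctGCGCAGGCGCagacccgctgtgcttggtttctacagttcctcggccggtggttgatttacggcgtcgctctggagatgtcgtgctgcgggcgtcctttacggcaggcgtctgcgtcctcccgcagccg

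Complex II, which oxidises succinate in the citric acid cycle, had 4 of 4 subunits below 0. None passed the threshold in edgeR or DESeq2, and none had an unadjusted p under 0.05. Sdha, the flavoprotein, stood at 174, 186, 176, 168, 158 and 168 CPM, and Sdhc, a membrane anchor, at 54.9, 53.5, 50.9, 48.3, 48.6 and 50.8 CPM. In both genes all aging libraries were lower by small steps, and the changes were -0.12 ± 0.08 and -0.11 ± 0.07 on the log2 scale (SE, edgeR adjusted p = 0.325 and 0.350). Sdhd, the other anchor, had a log2 fold change of -0.18 ± 0.10, and Sdhb, the iron-sulfur subunit, -0.05 ± 0.10 (SE), and their groups overlapped. Summed over the 4 genes, the level was 317, 320, 307, 295, 286 and 290.0 CPM, lower in every aging library under all 4 scalings tried (TMM, RLE, upper-quartile and library totals).

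The Sdha start region (chr13:74350211-74350440, minus strand) is shown because it holds 3 matches to the NRF1 motif, at 98, 55 and 10 bases before the start:
Sdha: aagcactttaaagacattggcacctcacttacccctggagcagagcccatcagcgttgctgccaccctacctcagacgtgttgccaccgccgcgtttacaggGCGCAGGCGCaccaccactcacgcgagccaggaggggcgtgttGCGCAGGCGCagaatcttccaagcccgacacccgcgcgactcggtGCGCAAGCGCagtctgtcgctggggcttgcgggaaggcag

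No complex III member passed in edgeR. An unadjusted p under 0.05 was reached by 3 of 9, all with values below 0, beside 4098 of all 13096 genes. Uqcrc2, a core protein that faces the matrix, stood at 95.5, 98.5, 98.3, 78.4, 81.6 and 84.0 CPM, and Uqcrc1, its partner, at 83.0, 84.1, 83.6, 72.7, 73.1 and 73.0 CPM. The aging libraries were all lower in both genes, and in Uqcrc1 they differed from each other by under 1 CPM. The log2 fold changes were -0.26 ± 0.07 (SE, edgeR adjusted p = 0.0525) and -0.20 ± 0.07 (SE, edgeR adjusted p = 0.0953), so neither passed. Uqcrc2 passed under DESeq2, upper-quartile scaling, library totals, a filter at a mean of 1 CPM and without aging replicate 5.

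Uqcrfs1, the Rieske iron-sulfur protein, had 48.6 ± 1.49 and 41.1 ± 4.43 CPM (SD, n = 3 per group), with all aging libraries lower (edgeR adjusted p = 0.135). The 5 small accessory subunits, Uqcrb, Uqcrh, Uqcrq, Uqcr10 and Uqcr11, had log2 fold changes from 0.02 to 0.16, and none passed. Uqcrh, the hinge protein near cytochrome c1, was the only one of them whose groups did not overlap. With upper-quartile scaling or library totals 4 of these 5 remained above 0.

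The Uqcrc1 start region (chr9:108936448-108936677, plus strand) is shown for the core proteins. Over both strands, the wider searched window held 3 NRF1 matches. Only the match that begins 5 bases after the start lies whole in the printed stretch:
Uqcrc1: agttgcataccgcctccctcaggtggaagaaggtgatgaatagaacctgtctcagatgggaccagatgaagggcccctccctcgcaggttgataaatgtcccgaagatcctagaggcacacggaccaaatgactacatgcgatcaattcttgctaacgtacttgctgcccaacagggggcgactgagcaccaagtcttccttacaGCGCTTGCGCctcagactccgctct

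Complex IV had no member past the threshold in edgeR or DESeq2. In edgeR 2 of its 15 tested members had an unadjusted p under 0.05, beside 4098 of all 13096 genes. Of its 11 nuclear accessory subunits, 9 had a log2 fold change above 0, with a median of 0.15. Cox7b stood at 22.9, 22.8, 24.1, 26.2, 28.6 and 28.4 CPM and Cox7a2 at 26.8, 24.97, 22.3, 28.7, 29.7 and 32.0 CPM. Both are small membrane subunits, and in both every aging library was higher (log2 fold changes 0.26 ± 0.09 and 0.29 ± 0.10, SE, edgeR adjusted p = 0.101 and 0.106). Cox8a and Cox6b1 likewise did not overlap, with 0.17 ± 0.08 and 0.16 ± 0.09 (SE). Cox5a, on the matrix side, lay in the other direction with -0.11 ± 0.08 (SE).

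Several complex IV subunits have isoforms restricted to muscle, lung, testis or hypoxic cells, and in these libraries the broadly expressed form was nearly the only one counted. Cox4i1 had 123 FPKM against 0.0833 FPKM for Cox4i2, the isoform known from lung. Cox6a1 had 142 FPKM against 0.137 FPKM for the muscle form Cox6a2, and Cox6b1 78.0 FPKM against 0.220 FPKM for the testis form Cox6b2. Cox7a2 had 41.5 FPKM and the related Cox7a2l, which joins complexes III and IV, 95.2 FPKM, against 0.268 FPKM for the muscle form Cox7a1. Ndufa4 had 66.9 FPKM and Ndufa4l2, known as hypoxia-induced, 0.0517 FPKM. These 5 low isoforms had 0 to 4 counts in each library and were not tested.

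Cox8b, Cox8c, Cox7b2, the pseudogene Cox5b-ps and the second Atp5o row had no count in any library, while Cox8a stood at 125 FPKM and Cox7b at 25.4 FPKM. A count of 0 allows up to 3 counts, which is 0.169 to 0.189 CPM in these libraries and covers counting error only. Muscle marker genes summed to 0.0582 to 0.775 CPM per library, with Myh6, Myh7, Myh4 and Actc1 at 0.

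In complex V 1 of the 19 tested members passed. The 5 small accessory subunits of the membrane part, which help to form enzyme dimers, all had log2 fold changes above 0. Atp5l (ENSMUSG00000038717), subunit g, stood at 44.99, 44.9, 41.3, 55.0, 51.7 and 53.8 CPM, with all aging libraries higher. It rose 1.22-fold, a log2 fold change of 0.29 ± 0.08 (SE, edgeR adjusted p = 0.0486). Without any single library its adjusted p lay between 0.0577 and 0.161, and in the authors' deposited table it passed, with a log2 fold change of 0.21 and an FDR of 0.0426. The call was also lost with no filter on low counts, upper-quartile scaling, library totals and limma on FPKM.

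Atp5k, subunit e, had the largest log2 fold change among the members but few counts, at 3.52, 4.33, 5.16, 6.10, 7.09 and 7.27 CPM. The groups did not overlap, and the change of 0.65 ± 0.20 (SE, edgeR adjusted p = 0.0673) did not pass, although it did under DESeq2 and with limma on log2(FPKM + 1). Atp5j2, subunit f, stood at 33.8, 38.5, 35.8, 39.5, 45.3 and 41.1 CPM (edgeR adjusted p = 0.153). For Atp5md and Atp5mpl the log2 fold changes were 0.14 ± 0.10 and 0.05 ± 0.14 (SE). The sum over the 5 genes was 114, 119, 117, 133, 138 and 140 CPM, higher in every aging library under all 4 scalings tried.

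The F1 head holds the catalytic sites, and none of its members passed. Its 5 genes summed to 946, 932, 923, 861, 871 and 848 CPM, lower in every aging library under all 4 scalings. Atp5a1 (357 ± 7.92 and 321 ± 15.5 CPM) and Atp5b (409 ± 4.26 and 378 ± 6.01 CPM, SD, n = 3 per group) encode the alpha and beta subunits and make up most of this sum. In both genes the aging libraries were all lower, with log2 fold changes of -0.15 ± 0.08 and -0.11 ± 0.07 (SE), and neither passed (edgeR adjusted p = 0.232 and 0.346). Atp5e, the small epsilon subunit of the central stalk, was the exception at 17.5, 14.1, 15.1, 20.2, 20.6 and 19.2 CPM, with 0.36 ± 0.12 (SE, edgeR adjusted p = 0.0822).

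In the peripheral stalk, which holds the head in place, Atp5j stood at 46.3, 40.4, 44.1, 50.8, 52.5 and 55.4 CPM, all aging libraries higher (log2 fold change 0.28 ± 0.08, SE, edgeR adjusted p = 0.0689). The first Atp5o row had -0.12 ± 0.07 (SE) in the other direction, and Atp5h and Atp5pb overlapped between the groups. Atp5g1, Atp5g2 and Atp5g3 encode the same mature c-ring protein. They stood at 28.6, 55.0 and 78.0 FPKM, with log2 fold changes of -0.17 ± 0.10, -0.08 ± 0.10 and -0.08 ± 0.09 (SE), and none passed.

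Start regions of Atp5k and Atp5l are shown as those of the membrane subunits with the smallest p. Atp5k (chr5:108434370-108434599, minus strand) holds an NRF1 match 50 bases before the start and an ETS match 12 bases after it, whereas Atp5l (chr9:44920713-44920942, minus strand) holds none of the searched motifs whole in the printed stretch but 2 ETS matches that lie at least partly outside it in the searched window:
Atp5k: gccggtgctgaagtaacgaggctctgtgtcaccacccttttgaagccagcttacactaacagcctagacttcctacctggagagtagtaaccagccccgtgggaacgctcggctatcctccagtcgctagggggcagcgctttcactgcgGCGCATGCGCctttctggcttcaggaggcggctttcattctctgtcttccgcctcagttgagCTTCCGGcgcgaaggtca
Atp5l: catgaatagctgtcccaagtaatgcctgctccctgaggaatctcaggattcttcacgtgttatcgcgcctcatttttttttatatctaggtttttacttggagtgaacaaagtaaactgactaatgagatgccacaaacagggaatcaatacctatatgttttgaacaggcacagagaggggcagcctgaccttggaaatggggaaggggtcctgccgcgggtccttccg

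The motif search covered 250 bases before to 50 after the start, on both strands, for NRF1 (the capitals in the Ndufs5 and Sdha windows, with any base at the sixth position), ETS factors (CCGGAAG) and YY1 (ANATGGCGG). All 77 tested nuclear members matched a RefSeq gene, and 65 had a window. NRF1 matches were found in 17 of the 65 (26.2%), beside 5.19% of 27018 genes with a window. Unlike the members, these 27018 genes were not limited to genes tested here. ETS matches were found in 26.2% beside 9.93%, and YY1 matches in 10.8% beside 2.18%. These are matches of letters, not measured binding.

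**Figure D3:**
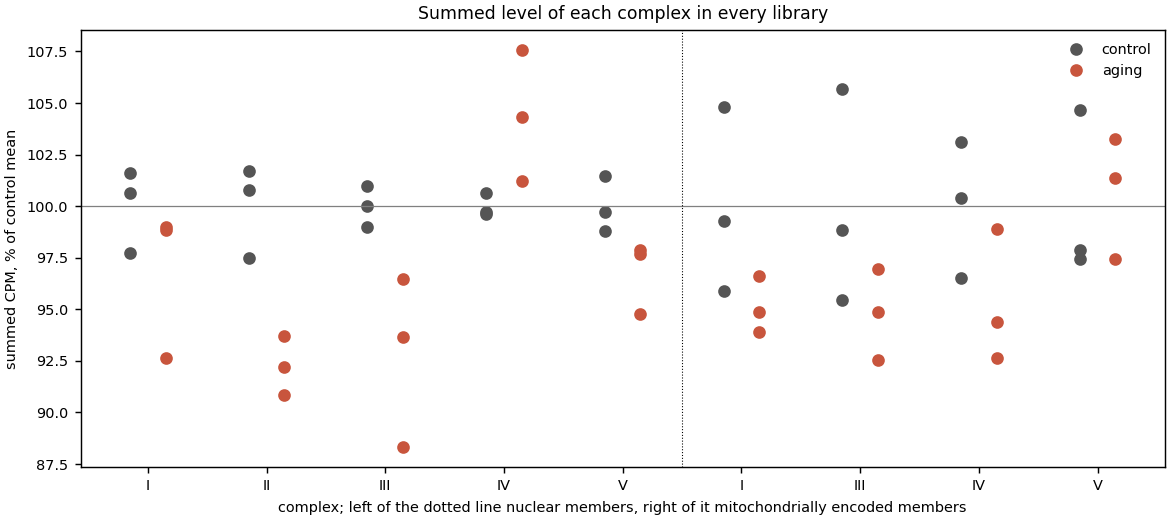
Summed CPM of the members of each complex in each library as a percentage of the control mean, for nuclear and mitochondrial members (points, 3 control and 3 aging libraries, axis not starting at 0). The nuclear sums of complexes II, III and V lie lower in all aging libraries and that of complex IV higher.

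Summed by complex, the nuclear members gave 4 sums in which the groups did not overlap, with log2 ratios between -0.12 and 0.06. Complex II had 315 ± 6.92 CPM in the control and 290 ± 4.52 CPM in the aging libraries. Complex III nuclear members had 359 ± 3.597 and 333 ± 14.8 CPM, and complex V nuclear members 1430 ± 19.3 and 1384 ± 24.7 CPM. Complex IV nuclear members were higher, at 625 ± 3.52 and 653 ± 19.9 CPM (SD, n = 3 per group), but overlapped under upper-quartile scaling and with library totals. Complex I nuclear members overlapped, at 881 ± 17.7 and 853 ± 31.9 CPM. These sums over members carry no test.

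The mitochondrial genome was represented by its 13 protein-coding genes, of which mt-Nd5 passed the threshold. They took 2.74% to 3.33% of all counts. mt-Nd6 stood at 92.4, 92.5, 108, 64.1, 85.5 and 68.9 CPM, all aging libraries lower, with a log2 fold change of -0.42 ± 0.13 (SE, edgeR adjusted p = 0.0651). It passed under DESeq2, without aging replicate 3 and with a block for the replicate number. As the kit does not mark strand, its counts may include RNA of the opposite strand, which was not tested. mt-Nd1, the membrane subunit at the quinone site, had 2345 ± 203 and 1936 ± 24.3 CPM (SD, n = 3 per group), also without overlap (edgeR adjusted p = 0.0949). mt-Nd3 went the other way at 209, 179, 191, 273, 216 and 254 CPM, all aging libraries higher, with 0.36 ± 0.11 (SE, edgeR adjusted p = 0.0719), and it passed under DESeq2.

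The remaining complex I subunits of this genome, mt-Nd2, mt-Nd4 and mt-Nd4l, overlapped between the groups, at -0.03, 0.12 and -0.00 on the log2 scale. The complex IV genes mt-Co1, mt-Co2 and mt-Co3 had -0.13 ± 0.09, 0.02 ± 0.09 and 0.07 ± 0.09 (SE), and mt-Co1 alone did not overlap, with 10348 to 10880 CPM against 9412 to 10298 CPM. mt-Cytb, the cytochrome b of complex III, had -0.08 ± 0.09 (SE), and mt-Atp6 and mt-Atp8, the membrane core of the ATP synthase, had 0.01 ± 0.09 and 0.08 ± 0.13 (SE). mt-Nd3, mt-Nd4 and mt-Nd4l lie next to each other on the genome, and so do mt-Nd5 and mt-Nd6.

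**Figure D4:**
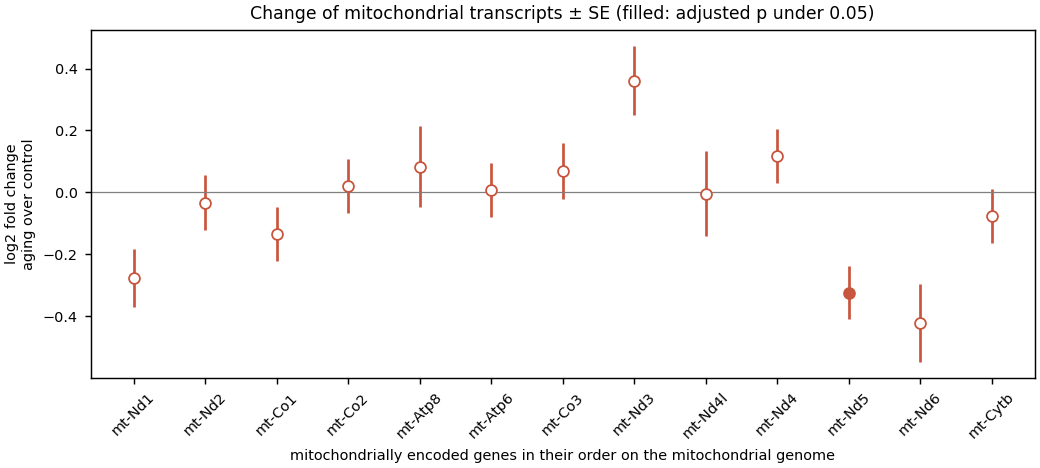
Log2 fold change, aging over control, with the SE for the 13 mitochondrial members in their order on the mitochondrial genome (filled: adjusted p under 0.05). The values run from -0.42 for mt-Nd6 to 0.36 for mt-Nd3, and mt-Nd5 is the filled point.

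Some of these genes share bases, so counts may be split between neighbours. Besides mt-Nd5 and mt-Nd6, shown above with 14 shared bases, mt-Atp8 and mt-Atp6 share 43 bases, mt-Nd4l and mt-Nd4 share 7, and mt-Atp6 and mt-Co3 share 1. The same-strand pairs with more than 1 shared base are shown because a read over these bases belongs to both genes of a pair. The capitals mark the shared bases in the whole of mt-Atp8 (MT:7766-7969) and in the last 60 bases of mt-Nd4l (MT:10114-10173), both on the plus strand of GRCm38:
mt-Atp8: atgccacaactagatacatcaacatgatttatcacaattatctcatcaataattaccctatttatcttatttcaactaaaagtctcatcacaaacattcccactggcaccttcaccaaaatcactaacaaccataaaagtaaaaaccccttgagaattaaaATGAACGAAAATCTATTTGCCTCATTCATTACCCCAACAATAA
mt-Nd4l: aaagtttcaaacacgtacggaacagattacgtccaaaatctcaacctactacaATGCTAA

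The balance between the 2 genomes did not separate the groups. Mitochondrial members summed to 31720, 30415, 29404, 29278, 29895 and 28521 CPM and nuclear members to 3648, 3618, 3564, 3417, 3543 and 3580 CPM, and both sums overlapped. The ratio of the sums within a library, which no scaling between libraries can move, was 8.45 ± 0.225 in the control and 8.32 ± 0.317 in the aging libraries (SD, n = 3 per group). Its log2 difference was -0.02, ranging from -0.04 to 0.01 when single libraries were left out. mt-Co1 made up 35.1 ± 0.739% of the mitochondrial sum in the control and 33.3 ± 1.15% in the aging libraries.

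Nuclear members are given here by a split on transcript length chosen after the values were seen. Of the 40 tested nuclear members under 750 bases, 28 had a log2 fold change above 0, and their median was 0.09. Of the 22 of at least 1000 bases, 17 were below 0, and their median was -0.11. Both members that rose, Ndufs5 (525 bases) and Atp5l (545 bases), are short, while Uqcrc1 (1640 bases), Uqcrc2 (1891 bases) and Sdha (2883 bases) are long. Over all tested genes the medians were 0.10 for 342 genes under 750 bases and -0.01 for 12238 genes of at least 1000 bases. Of the 342 short genes 235 were above 0, and of the 12238 long genes 6312 were below 0. The short members thus lay near all short genes.

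Relative to the control mean, the short nuclear members stood above the long ones in every aging library. The median log2 level relative to the control mean differed between short and long members by 0.02, -0.01 and -0.00 in the control. In the aging libraries it differed by 0.16, 0.22 and 0.24. The control libraries are themselves the reference, so their small differences were set by it. The aging values restate the fold changes library by library. The difference of the median log2 fold changes, 0.20, lay between 0.18 and 0.23 under all alternatives tried. A change of scaling shifts all genes nearly alike, so it could hardly move this difference. Leaving out single libraries gave 0.19 to 0.23. Across the 77 tested nuclear members, log2 length and log2 fold change had a correlation of -0.52, a description over genes that share the same 6 libraries, and across all 13096 genes it was -0.08. The lengths were those implied by the authors' counts and FPKM.

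**Figure D5:**
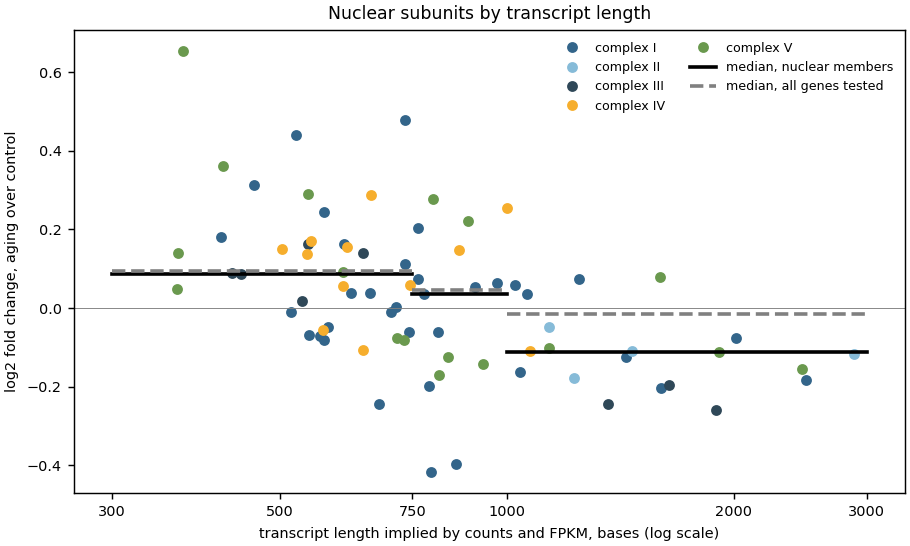
Log2 fold change, aging over control, of the tested nuclear members other than 1 not shown against transcript length in bases (log axis), coloured by complex, with the median of each length class for the members (solid) and for all genes tested (dashed). Short nuclear members lie mostly above 0 and those of 1000 bases or more mostly below 0, with medians of 0.09 and -0.11. The medians of all genes tested in these classes are 0.10 and -0.01.

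Genes that build the complexes or work beside them gave 4 calls higher and 8 lower among 222 tested genes of 7 lists. That is 5.41% called, below the 12.8% over all tested genes, and the difference was not tested. Among 52 assembly factors 1 rose and 1 fell, 3.85% called (DESeq2 called 4 higher and 1 lower). Cox17, the copper chaperone of complex IV, stood at 10.3, 10.6, 12.8, 18.9, 20.9 and 20.1 CPM, and it rose by 0.83 ± 0.13 on the log2 scale (SE, edgeR adjusted p = 0.0103). Cox10, which makes the heme of complex IV, fell from 18.9 ± 1.73 to 12.6 ± 1.05 CPM (SD, n = 3 per group), and its call was lost without any 1 of the control replicates or aging replicate 3. The call of Cox17 was lost only without control replicate 2 (edgeR adjusted p = 0.0563).

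Of 21 genes for electron carriers and quinone synthesis, 1 passed (4.76%, beside 12.8% of all tested genes). Coq10b, a ubiquinone-binding protein, stood at 48.5, 38.7, 47.0, 135, 93.6 and 98.8 CPM and rose by 1.29 ± 0.16 on the log2 scale (SE, edgeR adjusted p = 0.00680), and it kept its call under every alternative tried. For Cyc1 and Ndufab1, the subunits outside the naming rule, the log2 fold changes were -0.09 ± 0.10 and 0.31 ± 0.09 (SE), and neither passed (edgeR adjusted p = 0.565 and 0.0603).

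Of 22 genes for the citric acid cycle and pyruvate dehydrogenase, 3 fell and 0 rose, and 17 had values below 0. The share called was 13.6%, near the 12.8% over all tested genes. Idh2, the mitochondrial NADP-dependent isocitrate dehydrogenase, stood at 41.7, 35.5, 35.8, 28.0, 24.2 and 24.0 CPM, a log2 fold change of -0.57 ± 0.11 (SE, edgeR adjusted p = 0.0186). Pdha1, a subunit of pyruvate dehydrogenase, and Pdk1, a kinase that inhibits it, fell with -0.33 ± 0.08 and -0.68 ± 0.15 (SE). The 3 calls were lost without control replicate 2, control replicate 3 or aging replicate 3, those of Idh2 and Pdha1 also without control replicate 1, and those of Pdk1 and Pdha1 also without aging replicate 2.

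Of 29 genes that express the mitochondrial genome, Mtpap, its poly(A) polymerase, fell from 68.7 ± 5.26 to 47.8 ± 4.17 CPM, and Hsd17b10, part of the RNase that frees tRNAs, fell from 25.3 ± 1.13 to 17.9 ± 1.27 CPM (SD, n = 3 per group). Their log2 fold changes were -0.52 ± 0.10 and -0.50 ± 0.10 (SE). These 2 calls were 6.9% of the list, beside 12.8% called over all tested genes. The call of Mtpap was lost without control replicate 2 or 3, and that of Hsd17b10 without any control replicate or aging replicate 3. Of 9 nucleotide carriers and uncoupling genes 2 fell (22.2%, beside 12.8% called over all tested genes). Slc25a4, the ADP and ATP exchanger, and Ucp2 fell with -0.37 ± 0.08 and -0.43 ± 0.10 (SE). The call of Slc25a4 was lost without any single library other than aging replicate 5, and that of Ucp2 without any control replicate or aging replicate 3 and with limma on FPKM.

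Of 78 mitochondrial ribosomal genes 2 rose (2.56%, beside 7.22% of all tested genes). Mrpl33 stood at 7.45, 7.25, 6.42, 15.4, 13.6 and 14.5 CPM, a log2 fold change of 1.04 ± 0.13 (SE, edgeR adjusted p = 0.00642), and kept its call under every alternative. Mrps25 rose with 0.45 ± 0.12 (SE), a call lost without any single library other than aging replicate 5 and with upper-quartile scaling, library totals or limma on FPKM. None of 11 tested regulators of mitochondrial biogenesis passed in edgeR or DESeq2, and none had an unadjusted p under 0.05. Ppargc1a, the coactivator PGC-1alpha, stood at 2.20, 1.46, 2.71, 1.61, 1.12 and 0.523 CPM, with overlapping groups (log2 fold change -0.96 ± 0.44, SE, edgeR adjusted p = 0.184). Nrf1 and Gabpa, whose motifs were searched above, had 0.03 ± 0.13 and 0.12 ± 0.09 (SE).

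The authors' deposited table gives its own comparison of the aging and control groups. Its fold changes do not all follow from the 6 libraries used here. For Cox6a2 it gives a log2 fold change of 0.74, while the counts were 4, 1 and 4 in the control and 0 in every aging library. Which libraries its fold changes rest on cannot be told here. In it 11 members had an FDR under 0.05, 3 higher and 8 lower. They are 11.6% of the 95 members with a count, against 18.7% of all 17034 rows with a count (10.7% higher and 8.05% lower). Of the 3 members that passed here, only Atp5l was among them. The others were Uqcrc1, Uqcrc2, Ndufv3, Ndufa8, Ndufb1-ps, Atp5b, Ndufs1, Ndufv1, Cox7a2l and Atp5e, which all missed the threshold in edgeR.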

How the data were processed

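Poly(A)-selected RNA of 6 LSEC libraries was sequenced. Per the file headers, the deposited table holds whole-number counts and FPKM per library, group means (a score of the authors, not used), and the authors' log2 fold change, p-value and FDR, quoted only where named. All per-library columns were used (0 left out). Per the submitters' processing notes, the tools were RSEM, StringTie 1.3.1, HISAT2, Bowtie2 and fastp 0.18.0, whose roles are not stated. Not given in the sources used here are the build, annotation, strand setting, the authors' test and any rounding of estimated counts.

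Counts of 15999220 to 17871220 per library were tested in R 4.3.3 with edgeR 4.0.16: filterByExpr (minimum count 10, minimum total 15), TMM scaling (factors 0.963 to 1.049), a robust quasi-likelihood fit with group as its term, and Benjamini-Hochberg adjustment over 13096 genes with a threshold of 0.05. CPM used the TMM-scaled library sizes. The SE was derived from the F statistic (log2 fold change over the root of F). Alternatives used DESeq2 1.42.0, limma 3.58.1 on log2(FPKM + 1) with a mean FPKM of at least 1, other scalings and filters, and each library left out. No pair of replicates agreed within sampling noise (chi-square over degrees of freedom 8.40 to 54.5).

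The members, the gene lists, the classes within complexes and the motifs were chosen with earlier results of these data known. Named genes were members past the threshold, the 3 smallest p per complex, all mitochondrial members, isoform families, the highest and lowest level per complex, and up to 4 genes a list. The values of 1 member are not reported here on their own, though it stays in counts and sums. Others were named after their values were seen: Ndufv1, Ndufs1, Ndufs7, Ndufv2, Ndufa8, Ndufb1-ps, Cox5a, the remaining complex V genes, the small complex III subunits, Cyc1, Ndufab1, Nrf1 and Gabpa. The list of mitochondrial rRNA and tRNA genes matched no row and was not analysed here. Marker lists of macrophages (0 of 12 passed), stellate cells (3 of 9 lower), B cells (2 of 6 higher), T cells (1 of 7 higher) and erythroid cells (0 of 5) were also counted. Over all tested genes 7.22% were higher and 5.59% lower. Start regions came from RefSeq and mitochondrial genes from GENCODE M21. Their build may differ from that of the authors, so they served for sequence only.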

Additional observations from a re-analysis of the deposited data

How the results depend on the processing

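The number of genes past the threshold, 1678, was 1117 with limma on log2(FPKM + 1) and ranged from 268 (without control replicate 2) to 2121 (without aging replicate 5) when single libraries were left out. Of the members, 3 passed, against 7 with DESeq2, 0 with no filter on low counts, 1 with limma (Atp5k), and 0 to 2 when single libraries were left out. The log2 ratio of the nuclear sums, -0.0392, was -0.0852 with upper-quartile scaling, -0.0783 with library totals and -0.0815 with mitochondrial genes left out of the totals. The median change of the members, 0.0124, was -0.0333 with upper-quartile scaling, -0.0262 with library totals and -0.0268 with limma, and ranged from -0.0143 to 0.0461 when single libraries were left out. The cause of these shifts was not tested, other than that leaving out a library leaves fewer samples. Upper-quartile scaling moved the median of all genes by -0.05. Values under the alternatives were counted for all tested members and the genes chosen from the lists. Of these values, 1346 stayed on the same side of the threshold, 80 lost their call, 15 gained one and 0 reversed. Since 87 of the 90 tested members had no call to lose, the 1346 do not measure how stable the calls were. Members of few counts, such as Atp5k at 3.52 to 7.27 CPM, are limited by depth.

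Replicate numbers 2 and 3 occur in both groups, and the labels do not tie them to shared animals. Same-numbered libraries had correlations of deviations of -0.10 and -0.06, and unlike-numbered ones ranged from -0.31 to 0.31. So few values cannot settle whether the numbers pair the libraries. With the replicate block 1698 genes and 1 member, mt-Nd6, passed, and the 3 members of the main result did not.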
